A study of Rattus norvegicus with 16 samples.

Results

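The effect of phenformin on the rat heart that is shared by short and longer feeding was measured by setting all 8 arrays of phenformin-fed rats against all 8 arrays of control rats, with the day of sampling as an additive factor. These 16 arrays are all 16 of the series. Each array holds RNA from the left ventricle apex of a male RccHan Wistar rat, bought at 7 to 8 weeks of age. The groups are 4 arrays from rats given 3000 ppm phenformin in the diet for 3 days, 4 from rats on untreated diet (0 ppm) killed on day 3, 4 from rats given 3000 ppm phenformin for 14 days, and 4 from rats on untreated diet killed on day 14. Group sizes of 5 animals are stated in the labels, and 4 arrays per group, called biological replicates, were analysed here. The rats are not genetically modified, 1 dose was used, and each control group is matched to its phenformin group by day. Time of day at death was not given in the sources used here.

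Values are log2 intensities of a whole-transcript microarray, and a change is the phenformin mean minus the control mean on that log2 scale, with the standard error (SE) of the model, n = 8 arrays a side. Levels are compared only within a gene, never between genes, since probes differ in brightness. A gene is said to have risen or fallen when its Benjamini-Hochberg adjusted p from limma over all 22093 genes was under 0.05. A value of each day is the change at that day alone, n = 4 arrays a side, from a fit with 1 mean per group.

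Phenformin, a biguanide once used against diabetes, blocks the first complex of mitochondrial respiration, which leaves cells with less ATP and activates the energy sensor AMPK. The adult heart draws most of its energy from fatty acids, whose use is driven by the nuclear receptor PPAR alpha, and takes up glucose under the control of insulin and of sugar-sensing factors. Heart muscle also carries its own circadian clock, a loop in which BMAL1 and CLOCK switch on the Per, Cry and Nr1d genes, whose products switch BMAL1 and CLOCK off again. AMPK is known, from mouse, to act on that clock by marking cryptochromes for breakdown.

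The arrays were alike in median level but less so at the bright end. Their median log2 intensities lay between 4.94 and 5.13. A percentile near the top of each array ran from 16.93 (control day 14 replicate 3) to 17.79 (phenformin day 3 replicate 1). Pairs of arrays correlated at 0.989 to 0.995 over all genes. Of the control day 3 arrays, replicate 2 lay at one end of the second principal component, and replicate 3 at one end of the first, with the lowest median correlation with other arrays (0.9914). They were not alone, since phenformin day 14 replicate 4 lay at the other end of the first component (median correlation 0.9921). Leaving out both control arrays was chosen after seeing the data, and the genes named below that lose their call without both of them are listed with the pooled count, and the counts of the main lists are repeated without them. Phenformin and control arrays were alike in ventricular cardiomyocyte markers, a comparison that cannot test the tissue label itself. The 11 measured had a median change of 0.0092. Limma called 0 in either direction (0.865% of all genes were called), and 2 had an unadjusted p under 0.05 (12.8% of all genes had). Tnni3, which encodes cardiac troponin I, lay between 13.43 and 13.58 on phenformin arrays and between 13.43 and 13.57 on control arrays. In tissue RNA of this kind, fewer cells of a type and less RNA per cell cannot be told apart.

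Pooling both days called 191 genes, 0.865% of the 22093 tested. Of these, 55 were higher (0.249%) and 136 lower (0.616%) with phenformin. With the array medians aligned 62 were called, 61 of them among the 191, and normal scores of ranks gave 91 higher and 111 lower, or 45.0% higher against 28.8%. The changes were mostly small: the median size among called genes was 0.43 on the log2 scale, 58 genes differed at least 1.5-fold (13 higher and 45 lower), and 18 differed at least 2-fold. Over all genes the median change was -0.015 and 44.0% of changes lay above 0. An unadjusted p under 0.05 was found for 2824 genes (12.8%), where 1105 were expected by chance. In 37 called genes, 11 higher and 26 lower, no phenformin array overlapped any control array over both days, as was so for 54 genes in all (0.244%). Single arrays moved the count: it was 121, 109 and 121 without phenformin day 3 replicates 1, 3 and 4, 91 without phenformin day 14 replicate 3 and 106 without control day 3 replicate 3. It was 53 without control day 3 replicates 2 and 3, of which 47 were among the 191. That fit keeps only part of the day 3 controls and so has less power. No median change of a gene list moved in it beyond the spread between arrays.

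Of the genes described below as changed, these did not pass without both of those control arrays (adjusted p of 0.0546 to 0.183): the risers Nppa, Cpt1a, Cpt1b, Eci1, Hadhb, Mlycd, Gpam, Myom2, Alg11, Prkg1, Akap1, Pot1b, Tnfaip3 and Acad10, and the fallers Bmal1, Acadsb, Bdh1, Jun, Klf4, Cdkn1a, Tsc22d3, Irs2, Ccn2, Phlda1, Dusp8, Pdlim3, Adamts1, Slc7a1, Hspa1l, Ftl1, Epb42, Wt1, Tpx2, Kif23, Tk1, Lmod2, Tob1, Tob2, Usp2 and Wee1. With array medians aligned the same genes lost the call except Nppa, Tnfaip3, Bmal1, Ccn2, Phlda1, Dusp8, Adamts1, Hspa1l, Ftl1, Acad10 and Lmod2. Among those that kept their call under both settings were Nr1d1, Nr1d2, Per1, Per2, Cry1, Nfil3, Txnip, Arrdc4, Ech1, Tcap, Ucp2, Otud1, Abra, Nr4a1, Atf3, Rgs2 and Slc4a1. Eif2ak3 and Ftl1l5, named below, are not covered by these statements.

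The pooled test found genes that neither day called alone. The effect passed the threshold for 125 genes at day 3 (0.566%; 0.462% lower) and for 16 at day 14 (0.0724%; 0.0498% lower), with 5 in common, and 142 of the 191 pooled genes (74.3%) were in neither set. Both counts moved with single arrays, 22 to 149 at day 3 and 3 to 29 at day 14, and without control day 3 replicates 2 and 3 they were 3 and 12. That fit leaves fewer control arrays at day 3 than at day 14, and so less power at day 3. The order of its counts therefore cannot rank the days. All 191 changed in the same direction at both days, which selection on the pooled effect largely fixes. At each day taken alone, the groups lay apart in the same direction for 73 of the 191, 22 higher and 51 lower, against 114 of all genes (0.516%; 0.14% higher and 0.376% lower). The change was larger at day 3 in 111 of the 191 and at day 14 in 80. Conversely, 82 of the 125 day 3 genes and 5 of the 16 day 14 genes did not pass over both days. Of the 125 genes called at day 3, 103 (82.4%) had the same sign at day 14, against 54.5% of all genes, and 33 (26.4%) also had the same sign with an unadjusted p under 0.05 there, where 10.8% of all genes had such a p with either sign. The 2 days share no arrays, but their tests share a single estimate of each gene's spread. A gene with a low estimate thus tends to a small p at both days. No gene passed a test of the difference between the 2 days' effects: limma called 0 of 22093 (0%), with 1546 at an unadjusted p under 0.05 and a smallest adjusted p = 0.338. Among the 191 pooled genes, 19 (9.95%) had an unadjusted p under 0.05 for that difference.

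**Figure D1:**
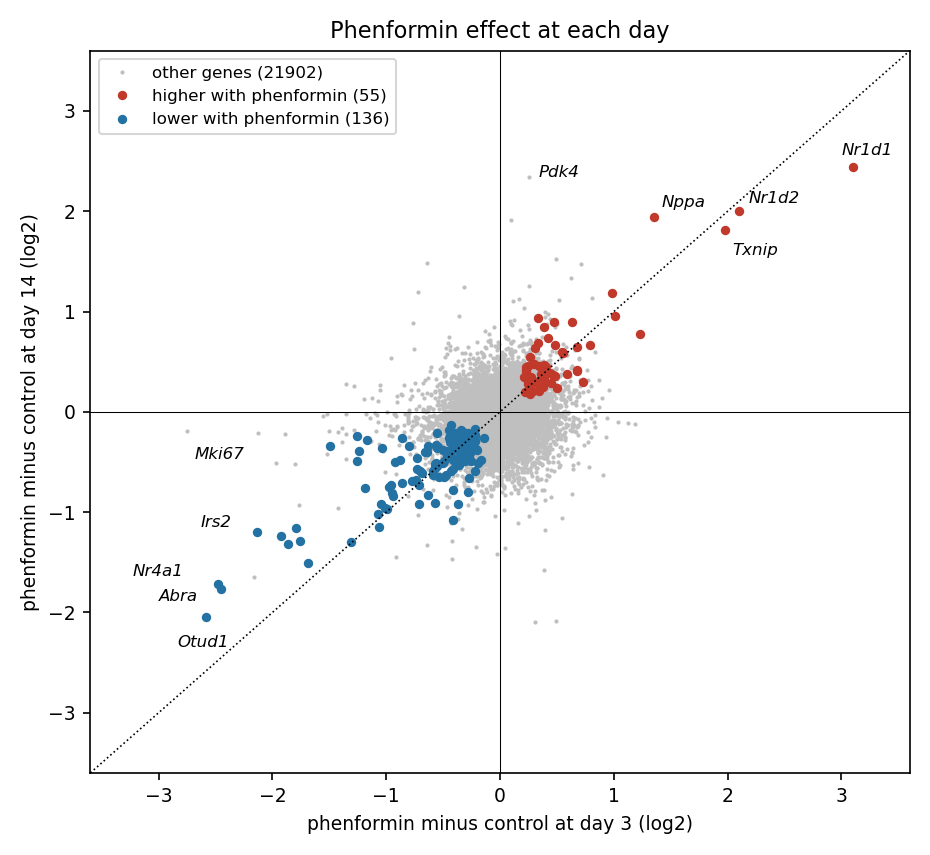
Change at day 3 (x axis) against change at day 14 (y axis) for every gene, both phenformin minus control in log2 units; red points are the 55 genes called higher and blue points the 136 called lower over both days, grey points all others, and the dotted line marks equal change. All coloured points lie in the lower left or upper right, with Nr1d1, Nr1d2 and Txnip far up along the line, while Mki67 changed by -2.75 at day 3 and -0.19 at day 14.

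Genes of the circadian clock moved in both directions, and 1 of them, Nr1d1, had the largest change of all called genes. Of the 22 measured clock genes, 2 were higher, Nr1d1 and Nr1d2, and 5 were lower, Per1, Cry1, Per2, Bmal1 and Nfil3, so 7 of 22 were called against 0.865% of all genes. The list median was -0.047, with risers and fallers on either side of 0, and 6 were called without control day 3 replicates 2 and 3. Levels of these genes vary over the day, and with the time of death not given in the sources used here, its part in these differences was not tested.

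Among the repressors of the loop, Nr1d1 encodes REV-ERB alpha, a nuclear receptor that silences Bmal1. Its log2 level was 9.03 on the lowest phenformin array, 10.16 at the median and 10.67 on the highest, against 6.56, 7.15 and 8.34 on control arrays. The lowest treated array was thus above the highest control. Nr1d1 rose 6.83-fold (change 2.77, SE 0.248, adjusted p = 2.97e-05), with changes of 3.10 at day 3 and 2.44 at day 14. Nr1d2 encodes its relative REV-ERB beta. It read 11.23, 12.07 and 12.43 on the lowest, median and highest phenformin arrays, against 9.48, 9.94 and 10.60 on control arrays, again with no overlap. It rose 4.14-fold (change 2.05, SE 0.158, adjusted p = 5.59e-06), by 2.10 at day 3 and 2.00 at day 14, and had the smallest p of all genes.

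Period and cryptochrome genes, which encode the inhibitors of BMAL1 and CLOCK, fell. Cry1 read 7.10, 7.23 and 7.57 (lowest, median and highest) on phenformin arrays and 7.82, 8.22 and 8.42 on control arrays, without overlap. Cry1 changed by -0.89 (SE 0.0881, adjusted p = 9e-05), and its second probe set, which is dimmer, by -0.28. Per1, which also responds within an hour to glucocorticoids and cyclic AMP, read 6.32, 6.68 and 7.08 on phenformin arrays and 7.20, 8.44 and 9.39 on control arrays. The groups did not overlap, but the controls were widely spread. Per1 changed by -1.59 (SE 0.255, adjusted p = 0.0083), and Per2 by -0.87 (SE 0.117, adjusted p = 0.00229), with Per2 levels of 6.33 to 6.59 on phenformin arrays and 6.67 to 7.85 on control arrays. Cry2 and Per3 did not pass: they changed by -0.36 (adjusted p = 0.0938) and 0.40 (adjusted p = 0.088).

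Bmal1 and Nfil3, which REV-ERB represses, fell. Bmal1, the activator of the loop, read 9.44, 9.96 and 10.41 on the lowest, median and highest phenformin arrays, against 10.30, 10.50 and 10.64 on control arrays. Only phenformin day 14 replicate 1, at 10.41, reached into the control range. Bmal1 changed by -0.57 (SE 0.105, adjusted p = 0.0177). Nfil3, a repressor of clock output genes that REV-ERB alpha is known to repress in mouse, read 5.57 to 5.97 with phenformin and 6.04 to 6.51 in controls, with no overlap, and changed by -0.55 (SE 0.0761, adjusted p = 0.00289). Npas2, which can stand in for CLOCK, changed by 0.36 (adjusted p = 0.288) and Clock itself by 0.00011 (SE 0.0637). The output factor Dbp had changes of 0.24 at day 3 and 0.87 at day 14 and did not pass over both days (0.56, SE 0.161, adjusted p = 0.115). Of the other members, Tef changed by 0.049, Hlf by -0.30, Bhlhe41 by 0.39 and the nuclear receptor Rora, which activates Bmal1, by -0.074, and none of these passed.

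The promoters of Bmal1 and Nr1d2 are shown because, of the called clock genes, these hold AGGTCA, on the strand of the gene. This hexamer is part of the sites that REV-ERB and ROR receptors bind, and alone it does not show that a receptor binds there. They are the 250 bases before to 50 after the transcription start in RefSeq's rat build GRCr8, with AGGTCA in capitals, on chr1:176766078-176766377 (plus strand) for Bmal1 and on chr15:9954784-9955083 (plus strand) for Nr1d2.
Bmal1: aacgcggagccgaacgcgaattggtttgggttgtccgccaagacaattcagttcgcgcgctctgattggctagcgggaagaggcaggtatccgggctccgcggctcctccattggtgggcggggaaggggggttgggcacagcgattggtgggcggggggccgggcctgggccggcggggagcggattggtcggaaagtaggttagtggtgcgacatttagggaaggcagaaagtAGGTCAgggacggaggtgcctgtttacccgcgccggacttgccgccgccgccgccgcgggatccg
Nr1d2: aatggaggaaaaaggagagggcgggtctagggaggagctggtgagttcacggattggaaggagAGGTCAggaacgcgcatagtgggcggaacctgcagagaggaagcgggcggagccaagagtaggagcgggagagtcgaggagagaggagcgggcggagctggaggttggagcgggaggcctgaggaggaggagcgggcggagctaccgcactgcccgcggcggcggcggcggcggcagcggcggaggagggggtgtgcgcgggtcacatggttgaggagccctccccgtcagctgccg
The capitals begin 15 bases before the start of Bmal1 and 187 bases before that of Nr1d2. The promoters of Nr1d1, Nfil3, Per1 and Per2 did not hold AGGTCA on either strand. Those of Ucp3, Gdf15, Ppp1r15a, Hspa1l, Epb42 and Bub1, outside the clock list, did. AGGTCA on either strand was found in 13.9% of 17125 promoters of this length and in 12.7% of those of 150 called genes.

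**Figure D2:**
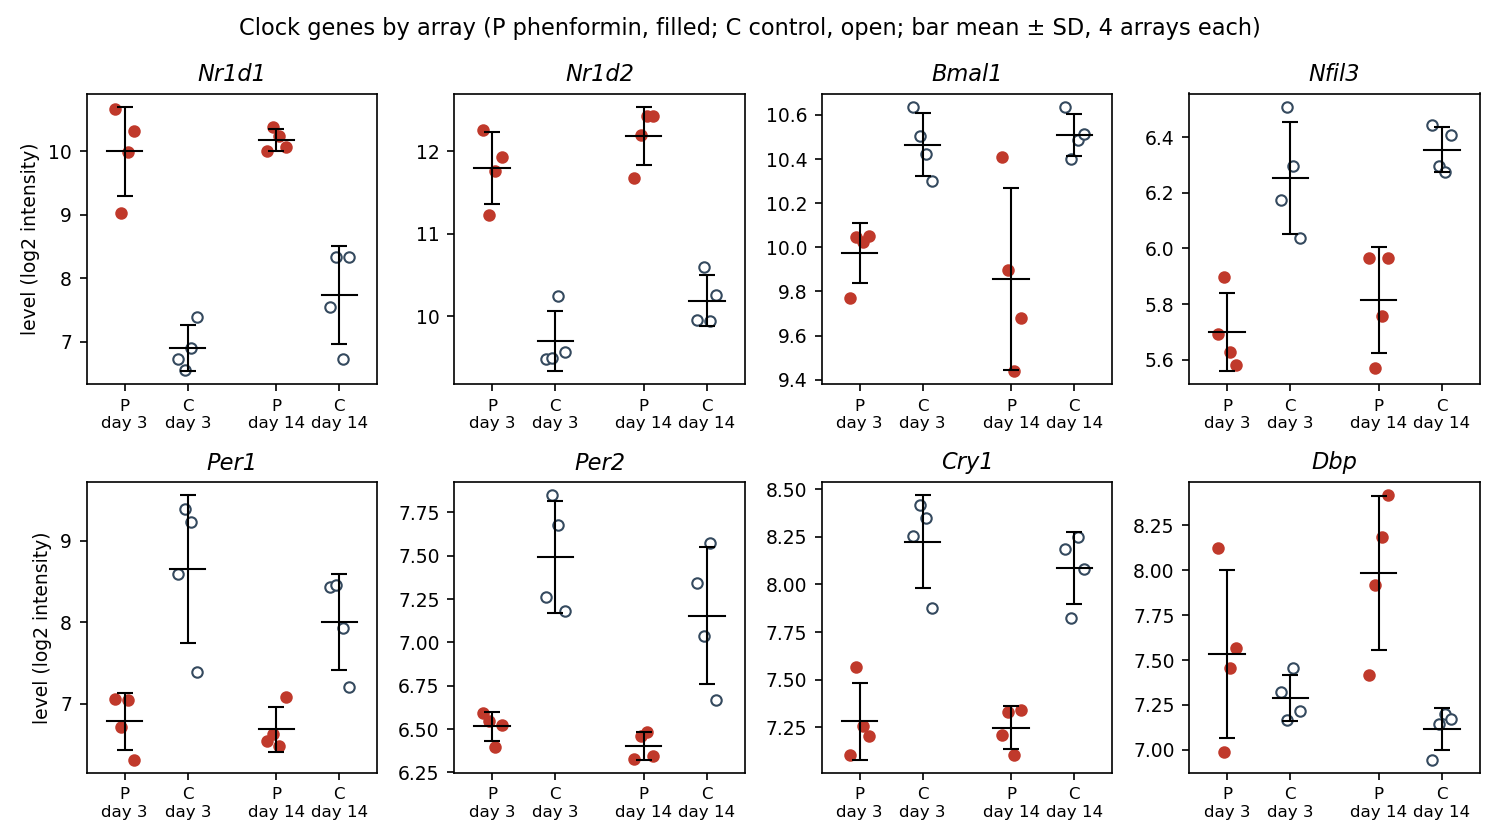
Log2 intensity (y axis, a separate scale per gene) of 8 clock genes on each array, with phenformin (P, filled red) left of control (C, open) at day 3 and at day 14; horizontal bars are means and whiskers the SD of 4 arrays. Nr1d1 and Nr1d2 lay higher and Nfil3, Per1, Per2 and Cry1 lower on all 8 phenformin arrays than on any control array, while Dbp overlapped at day 3.

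Txnip and Arrdc4, a pair of alpha arrestins that hold glucose transporters inside the cell and are switched on by the sugar-sensing factor MondoA, rose together. Txnip read 15.86 at the median and 16.30 on the highest of the phenformin arrays, against 13.80 and 14.77 on control arrays. The lowest treated array, day 14 replicate 4, was still above the highest control. It rose 3.73-fold (change 1.90, SE 0.23, adjusted p = 0.00124). Arrdc4 read 9.29, 9.72 and 10.27 with phenformin and 8.52, 8.76 and 9.18 in controls, also without overlap, and rose 1.97-fold (0.98, SE 0.124, adjusted p = 0.00162). The other 6 measured members of this list all changed by less than 0, and none was called: Mlxip, which encodes MondoA, changed by -0.095, Mlxipl, which encodes its relative ChREBP, by -0.22 (adjusted p = 0.197), and the arrestins Arrdc2 and Arrdc3 by -0.065 and -0.08.

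The Arrdc4 promoter, on chr1:131793376-131793675 of GRCr8 (minus strand, shown in the direction of the gene), is given because it holds CACGTG, the palindrome that MondoA, CLOCK and related factors bind, in capitals 177 bases before the start.
Arrdc4: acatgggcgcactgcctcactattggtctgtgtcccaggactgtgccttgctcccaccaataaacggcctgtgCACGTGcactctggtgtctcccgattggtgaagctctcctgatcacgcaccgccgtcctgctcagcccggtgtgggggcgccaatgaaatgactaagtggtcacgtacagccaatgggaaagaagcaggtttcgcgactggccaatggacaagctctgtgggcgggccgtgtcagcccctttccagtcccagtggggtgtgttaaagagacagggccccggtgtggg
That hexamer was found in 7.70% of the 17125 promoters and in 9.33% of those of the 150 called genes. Txnip has no entry in the promoter table.

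Few other genes of glucose handling passed the test. Of 25 genes of glucose uptake and glycolysis, limma called 0 and 6 had an unadjusted p under 0.05, with a median of -0.059. Of all genes, 0.865% were called and 12.8% had such a p. The muscle glucose transporter gene Slc2a4 changed by -0.25 (SE 0.112, adjusted p = 0.348) and the hexokinase gene Hk2 by -0.30 (SE 0.157, adjusted p = 0.454). Gys1, the muscle glycogen synthase gene, was named after its values were seen. It read 12.48 to 12.94 on phenformin arrays and 12.96 to 13.35 on control arrays, with no overlap, and fell (change -0.38, SE 0.0607, adjusted p = 0.0083). Pdk4, whose product restrains pyruvate oxidation, did not pass: it read 12.53 to 17.42 with phenformin and 13.06 to 16.91 in controls, changing by 0.26 at day 3 and 2.34 at day 14 (pooled 1.30, SE 0.586, adjusted p = 0.36). Among 19 genes of the citric acid cycle and pyruvate entry, 1 was called, against 0.865% of all genes. Pc, pyruvate carboxylase, which refills the cycle, changed by -0.42 (SE 0.0699, adjusted p = 0.0104), reading 7.22 to 7.81 with phenformin and 7.61 to 8.20 in controls.

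Genes of fatty acid use lay mostly higher with phenformin, each by a small amount. Of 27 measured genes of fatty acid oxidation and the carnitine shuttle, 6 were higher and 1 lower, against 0.249% and 0.616% of all genes. In this list 25 of 27 lay above 0, with a median of 0.151, where 44.0% of all genes did. Of 28 PPAR alpha targets, which share several members with that list, 5 were higher and 1 lower, 26 lay above 0 and the median was 0.212, with medians of 0.199 at day 3 and 0.255 at day 14. Without control day 3 replicates 2 and 3 the medians were 0.124 and 0.218, but only 1 member of the first list and 2 of the second were called.

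Ech1, a dienoyl-CoA isomerase that prepares unsaturated fatty acids for oxidation, changed the most among the risers of the list. It read 13.84, 14.24 and 14.34 on the lowest, median and highest phenformin arrays and 13.15, 13.45 and 14.06 on control arrays. Of the controls, only day 14 replicate 4, at 14.06, reached into the treated range. Ech1 rose 1.58-fold (change 0.66, SE 0.101, adjusted p = 0.00613), by 0.67 at day 3 and 0.65 at day 14. Cpt1a, the liver-type carnitine palmitoyltransferase that lets long-chain fatty acids into mitochondria, read 9.59, 10.33 and 11.03 with phenformin and 9.37, 9.74 and 9.91 in controls. Its groups overlapped at day 3 and were apart at day 14. Cpt1a rose 1.53-fold (0.62, SE 0.129, adjusted p = 0.0316), and it missed the threshold in 7 of the 16 fits that left out 1 array (adjusted p of up to 0.0694). The muscle form Cpt1b rose by 0.29 (SE 0.0574, adjusted p = 0.023), reading 15.13 to 15.53 with phenformin and 14.94 to 15.34 in controls, and missed the threshold in 2 of the 16.

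Other risers of the list were Eci1, an enoyl-CoA isomerase (0.42, SE 0.0799, adjusted p = 0.0209), Hadhb, a subunit of the trifunctional protein (0.26, SE 0.052, adjusted p = 0.0261), and Mlycd, which removes the carnitine shuttle's inhibitor malonyl-CoA (0.34, SE 0.0736, adjusted p = 0.0388). Hadhb and Mlycd lost the call in 4 and 11 of the 16 fits without 1 array, with adjusted p of up to 0.058 and 0.0828. Main enzymes of the pathway did not pass: Acadm changed by 0.054, Acadl by 0.075, Acadvl by 0.21 (adjusted p = 0.143) and Hadha by 0.16 (adjusted p = 0.18). The fatty acid importer Cd36 changed by 0.21 (SE 0.0553, adjusted p = 0.086). Ucp3 and Angptl4, both PPAR targets, stood higher without passing (1.01, adjusted p = 0.0658, and 0.98, adjusted p = 0.0862). Gpam, which starts triglyceride synthesis, was the 1 called gene of 23 in triglyceride storage, against 0.865% of all genes. It read 12.24 to 13.70 with phenformin and 12.11 to 13.04 in controls (change 0.63, SE 0.136, adjusted p = 0.0358). Without single arrays Gpam missed the threshold in 8 of 16 fits (adjusted p of up to 0.0728).

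Against the trend of these lists, Ucp2, an uncoupling protein of the inner mitochondrial membrane, fell. It read 15.22, 15.43 and 15.91 on the lowest, median and highest phenformin arrays and 15.79, 16.14 and 16.42 on control arrays, apart at day 14 and overlapping at day 3. The change was -0.59 (SE 0.111, adjusted p = 0.0191). Acadsb, an acyl-CoA dehydrogenase of branched-chain amino acid breakdown, changed by -0.72 (SE 0.162, adjusted p = 0.0433), and its second, dimmer probe set by -0.31. Bdh1, which interconverts ketone bodies, changed by -0.61 (SE 0.139, adjusted p = 0.0482). Acadsb and Bdh1 lost the call in 12 and 14 of the 16 fits without 1 array, with adjusted p of up to 0.0844 and 0.0986.

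**Figure D3:**
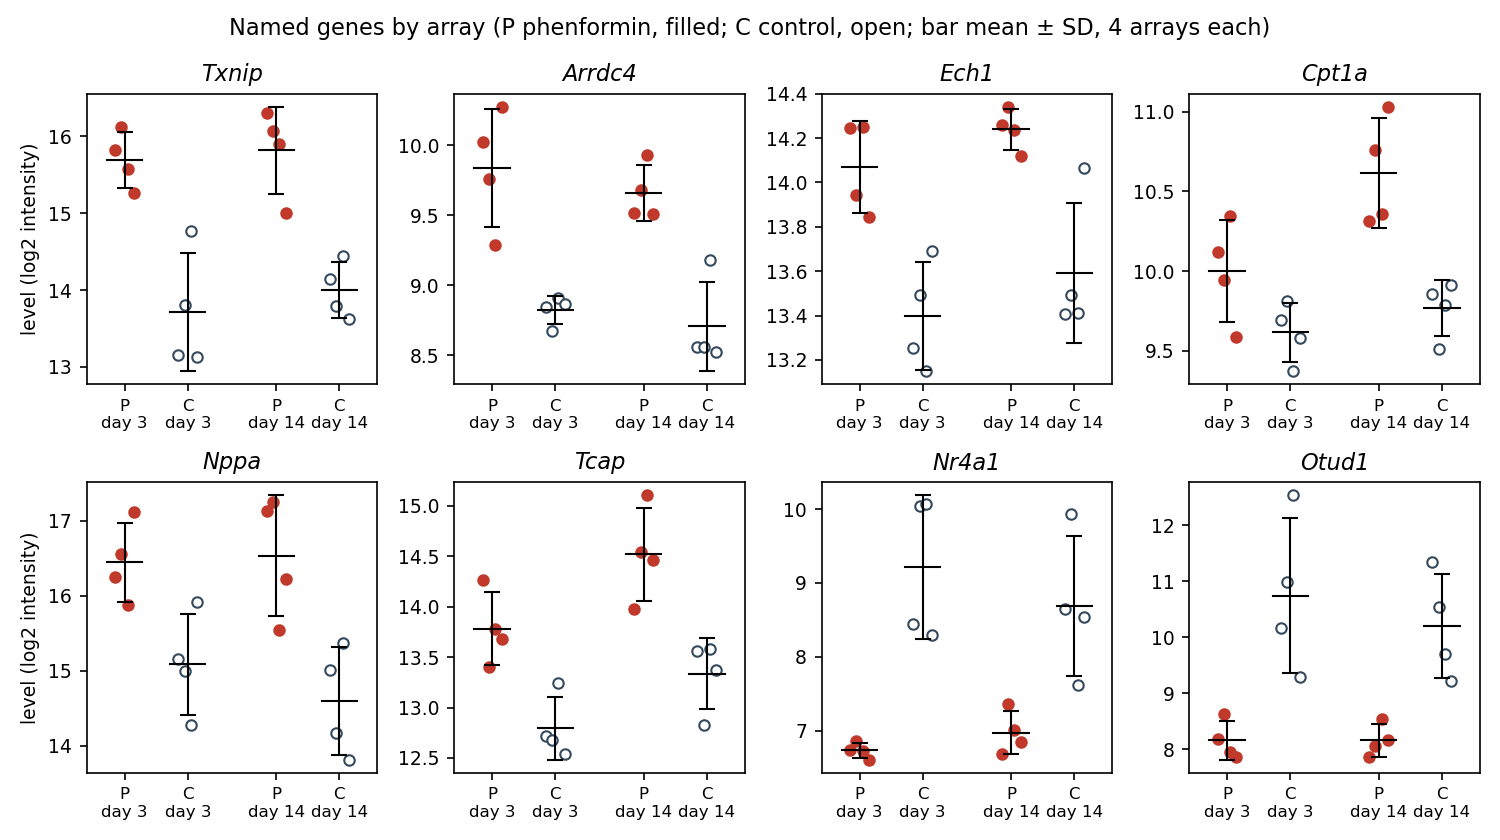
Log2 intensity (y axis, a separate scale per gene) of 8 named genes on each array, with phenformin (P, filled red) left of control (C, open) at day 3 and at day 14; horizontal bars are means and whiskers the SD of 4 arrays. Txnip, Arrdc4 and Tcap were higher on every phenformin array than on every control array of the same day, Nr4a1 and Otud1 were lower, and the control arrays of Nr4a1 and Otud1 were widely spread.

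Lists of genes that encode the proteins nearest to the drug's action gave no calls. With 0.865% of all genes called, lists of these sizes would mostly hold none, so the counts alone say little. An unadjusted p under 0.05 was found for 12.8% of all genes. Of 35 nuclear-encoded complex I subunit genes, limma called 0 in either direction and 3 had an unadjusted p under 0.05. Their median was -0.018 and their changes ran from -0.199 to 0.158. Subunit genes of complexes II to V had a median of -0.028 over 36 genes, with 0 called and 4 at an unadjusted p under 0.05. The 16 genes of AMPK and its upstream kinases had a median of 0.018, with 0 called and 0 at an unadjusted p under 0.05. The 10 organic cation transporter genes, some of which can carry biguanides into cells, had a median of -0.00037, with 0 called and 2 at an unadjusted p under 0.05.

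Some genes of heart muscle structure and cardiac stress were called, in both directions. Of 18 adult sarcomere genes, 2 were higher, Tcap and Myom2, and 0 lower, with a median of 0.0098. Outside that list, Pdlim3 and Lmod2, also genes of heart muscle structure, fell, as given below. Of 15 genes of cardiac stress and hypertrophy, 1 was higher, Nppa, and 1 lower, Ccn2, with a median of -0.024, against 0.249% higher and 0.616% lower of all genes. Tcap, telethonin, which caps titin at the Z-disc, read 13.40, 14.12 and 15.11 on the lowest, median and highest phenformin arrays, against 12.53, 13.04 and 13.58 on control arrays. The groups were apart within each day. Tcap rose 2.12-fold (change 1.09, SE 0.162, adjusted p = 0.00466). Nppa, which encodes atrial natriuretic peptide and is switched back on in the ventricle under load, read 15.54, 16.40 and 17.25 with phenformin and 13.82, 15.01 and 15.92 in controls. It rose 3.14-fold (1.65, SE 0.297, adjusted p = 0.0165), and did not pass without control day 3 replicates 2 and 3 (1.53, adjusted p = 0.0804). Nppb, which encodes the related B-type peptide, changed by 0.022 and did not pass (SE 0.252, adjusted p = 0.986).

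Nppa is also a marker of atrial muscle, so the other atrial markers were read beside it. Of the 8 measured, Nppa alone was called and 4 had an unadjusted p under 0.05, against 0.865% and 12.8% of all genes. Their directions were split: 5 lay above 0 and 3 below, with changes from -1.19 to 1.65. Myl7, the atrial myosin light chain, read 5.51 to 5.99 with phenformin and 5.21 to 5.76 in controls (change 0.22, adjusted p = 0.304). Myl4 changed by 0.19 (adjusted p = 0.318). The summed level of the atrial list, as the mean deviation from the 16-array mean, ran from -0.208 to 0.536 with phenformin and from -0.30 to 0.238 in controls. Their part in the rise of Nppa was not tested. Myom2, an M-band protein of the sarcomere, rose by 0.48 (SE 0.105, adjusted p = 0.0388), lost in 11 of 16 fits without 1 array. The slow myosin gene Myh7 stood at 0.59 (SE 0.138, adjusted p = 0.0546), reading 19.28 to 19.57 with phenformin and 18.07 to 19.33 in controls, and passed without control day 3 replicates 2 and 3 (adjusted p = 0.0434).

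Among receptors and channels, Lpar6, a receptor for lysophosphatidic acid, read 8.52, 9.02 and 9.65 on the lowest, median and highest phenformin arrays and 7.52, 8.08 and 8.39 on control arrays. There was no overlap, and it rose 2.00-fold (SE 0.156 on the log2 scale, adjusted p = 0.00731). Kcnj5, a subunit of the potassium channel that acetylcholine opens, read 8.59, 8.84 and 9.48 with phenformin and 7.78, 8.29 and 8.57 in controls. It rose 1.66-fold (0.73, SE 0.121, adjusted p = 0.0101) and was the 1 called gene of 24 cardiac ion channel and calcium handling genes, against 0.865% of all genes.

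Stc2, stanniocalcin 2, a secreted inhibitor of the protease PAPP-A, read 8.65, 8.82 and 9.32 on the lowest, median and highest phenformin arrays, against 8.21, 8.34 and 8.41 on control arrays. All treated arrays lay above all controls. It rose 1.49-fold (change 0.58, SE 0.0748, adjusted p = 0.00184). The phosphatase gene Ptp4a3 read 10.30, 10.61 and 10.96 with phenformin and 9.91, 9.99 and 10.31 in controls, and also rose 1.49-fold (0.57, SE 0.073, adjusted p = 0.00162). Rnf168, a ubiquitin ligase of the DNA damage response, and Alg11, a mannosyltransferase of protein glycosylation, were higher on all 8 phenformin arrays than on any control array, by 0.31 (SE 0.0499, adjusted p = 0.0086) and 0.34 (SE 0.0609, adjusted p = 0.0168).

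Smaller rises were those of Prkg1, the cyclic GMP-dependent protein kinase (0.32, SE 0.063, adjusted p = 0.022), Akap1, which anchors protein kinase A at mitochondria (0.31, SE 0.0591, adjusted p = 0.0217), and Pot1b, a telomere-binding protein in mouse (0.37, SE 0.0814, adjusted p = 0.0407). Akap1 rests on its brighter probe set, since the second changed by -0.019. Pot1b lost the call in 12 of 16 fits without 1 array (adjusted p of up to 0.0829). Tnfaip3, which damps NF-kappa B signalling, was the 1 called gene of 22 inflammatory genes, against 0.865% of all genes. It rose by 0.51 (SE 0.107, adjusted p = 0.0316), and it lost the call in 9 of 16.

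**Figure D4:**
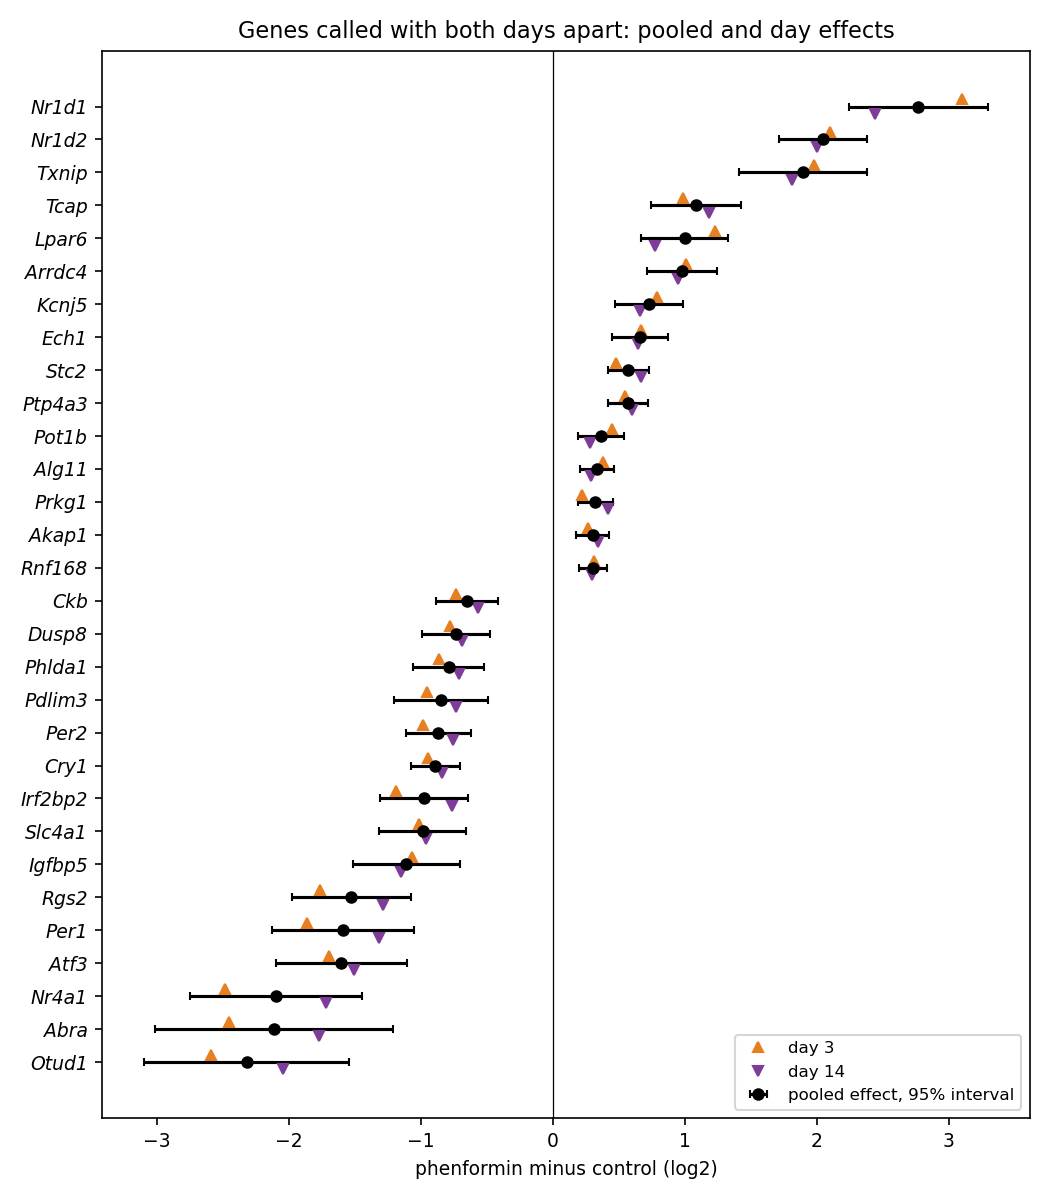
Pooled change (black points, bars the 95% interval of the fit) of the 15 genes of largest rise and the 15 of largest fall whose groups were apart at both days, with the day 3 (triangles up) and day 14 (triangles down) changes; the x axis is phenformin minus control in log2 units. Both days lie on the same side of 0 for all 30 genes, as their selection requires, and the intervals widen for the genes of largest fall, such as Otud1 and Abra.

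The largest falls were those of Otud1, Abra and Nr4a1, and control arrays differed widely among themselves in all 3. Otud1, a deubiquitinase, read 7.86, 8.12 and 8.63 on the lowest, median and highest phenformin arrays, against 9.23, 10.35 and 12.54 on control arrays. No phenformin array reached the lowest control. Otud1 changed by -2.31 (SE 0.368, adjusted p = 0.0083). Abra, a muscle protein that signals actin assembly to gene control, read 8.36, 9.12 and 9.95 with phenformin and 9.55, 11.02 and 13.38 in controls. It changed by -2.11 (SE 0.428, adjusted p = 0.0267) and lost the call in 6 of 16 fits without 1 array (adjusted p of up to 0.059). Nr4a1, an orphan nuclear receptor, read 6.61, 6.79 and 7.36 with phenformin and 7.62, 8.60 and 10.07 in controls, without overlap, and changed by -2.10 (SE 0.308, adjusted p = 0.00455).

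Immediate early genes, the first to answer stretch, hormones or stress, lay mostly lower. Of 29 measured, 4 were lower and 0 higher by limma (0.616% and 0.249% of all genes were), 27 lay below 0, and the median change was -0.30, with -0.55 at day 3 and -0.18 at day 14. The 4 were Nr4a1, Atf3, Jun and Klf4, of which the first 2 passed without control day 3 replicates 2 and 3, where the median was -0.13. Klf4, a zinc finger factor, lost the call in 12 of 16 fits without 1 array (adjusted p of up to 0.0698). Atf3, a transcription factor of the stress response, read 6.01, 6.23 and 7.24 on the lowest, median and highest phenformin arrays and 7.28, 7.79 and 9.35 on control arrays. It changed by -1.60 (SE 0.236, adjusted p = 0.00455), with no overlap. Jun, a subunit of AP-1, changed by -0.98 (SE 0.203, adjusted p = 0.0304), lost in 9 of 16 fits without 1 array. Fos and Egr1 did not pass (-1.17, adjusted p = 0.201, and -0.97, adjusted p = 0.359): Fos read 4.94 to 5.80 with phenformin and 5.20 to 9.29 in controls. The relatives Nr4a2 and Nr4a3 stood at -1.35 (adjusted p = 0.0525) and -1.90 (adjusted p = 0.0658).

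The mean deviation of the immediate early list ran from -0.455 to 0.0952 on phenformin arrays and from -0.0994 to 1.03 on control arrays. Control day 3 replicates 2 and 3 read 10.04 and 10.07 for Nr4a1, the 2 highest of all arrays. Without both of them Nr4a1 changed by -1.68 (adjusted p = 0.0109), Otud1 by -1.85 (adjusted p = 0.0109), Atf3 by -1.35 (adjusted p = 0.00967) and Abra by -1.47 (adjusted p = 0.0438), all still past the threshold. The part of this list's level in other falls was not tested.

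Some glucocorticoid targets fell as well. Of 21 measured, 4 were lower and 0 higher, against 0.616% and 0.249% of all genes: Per1, Rgs2, Cdkn1a and Tsc22d3, with a list median of -0.35. Without control day 3 replicates 2 and 3 2 of them passed and the median was -0.21. Rgs2, which shortens signals from G protein-coupled receptors, read 7.30, 7.82 and 8.99 on the lowest, median and highest phenformin arrays and 8.93, 9.50 and 9.99 on control arrays. The 1 treated array above the lowest control was day 3 replicate 2. Rgs2 changed by -1.52 (SE 0.215, adjusted p = 0.0032). Tsc22d3, a glucocorticoid-induced inhibitor of inflammation, read 8.47 to 8.71 with phenformin and 8.74 to 9.52 in controls, and changed by -0.57 (SE 0.106, adjusted p = 0.0188). Cdkn1a, the cell cycle inhibitor p21, changed by -1.04 (SE 0.218, adjusted p = 0.0311), lost in 8 of 16 fits without 1 array. Fkbp5, a standard glucocorticoid target, did not pass (-0.26, SE 0.0839, adjusted p = 0.167).

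In the list of FoxO, atrophy and insulin signalling genes, 2 of 19 were lower, Irs2 and Igfbp5, and 0 higher, against 0.616% and 0.249% of all genes. Irs2, an adaptor of the insulin receptor, read 8.17, 8.52 and 9.26 on the lowest, median and highest phenformin arrays and 8.74, 10.15 and 11.78 on control arrays. The control spread was wide, the groups overlapped, and the change of -1.67 (SE 0.356, adjusted p = 0.0352) lost the call in 9 of 16 fits without 1 array. Igfbp5, a secreted binding protein of insulin-like growth factors, read 10.98, 11.62 and 12.60 with phenformin and 12.04, 12.95 and 13.58 in controls. Its groups were apart within each day, and it changed by -1.11 (SE 0.192, adjusted p = 0.0127). Ccn2, connective tissue growth factor, changed by -1.30 (SE 0.238, adjusted p = 0.0177). It was the 1 called gene of 38 collagen and matrix genes, against 0.865% of all genes, so the call is read for Ccn2 and not for the list. Without control day 3 replicates 2 and 3 Ccn2 did not pass (adjusted p = 0.0873). Col1a1, the main collagen chain, stood at -0.56 (SE 0.173, adjusted p = 0.145).

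Further falls with groups apart at both days were those of Ckb, brain-type creatine kinase, which read 9.98 to 10.61 with phenformin and 10.65 to 11.22 in controls (change -0.65, SE 0.111, adjusted p = 0.0111), and of Irf2bp2, a transcriptional co-repressor (-0.98, SE 0.158, adjusted p = 0.00833). Phlda1 changed by -0.79 and the MAP kinase phosphatase gene Dusp8 by -0.73, and both lost the call without control day 3 replicates 2 and 3 (adjusted p = 0.0546 and 0.0618). Pdlim3, a Z-disc protein, changed by -0.84 (SE 0.17, adjusted p = 0.0256) and lost the call without phenformin day 14 replicate 3 or control day 3 replicate 2. Chosen after their values were seen, Sik1, a kinase induced by cyclic AMP, and Adamts1, a secreted protease, changed by -1.48 (SE 0.215, adjusted p = 0.00432) and -1.58 (SE 0.303, adjusted p = 0.0207).

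Genes of the stress responses that mitochondrial inhibitors can set off lay mostly at or below 0. In the integrated stress response list, 1 of 41 genes was higher (Stc2) and 3 were lower (Atf3, Ppp1r15a and Slc7a1), with 32 below 0 and a median of -0.079, against 0.249% higher, 0.616% lower and 44.0% above 0 of all genes. Slc7a1, an importer of basic amino acids, lost the call in 13 of 16 fits without 1 array (adjusted p of up to 0.0825). Outside that list and chosen after its values were seen, Eif2ak3, which encodes a kinase of this response, rose (0.29, SE 0.0623, adjusted p = 0.0388). Ppp1r15a, which restarts translation after that response, read 5.38 to 6.35 with phenformin and 6.10 to 6.89 in controls and changed by -0.71 (SE 0.117, adjusted p = 0.00873). The markers most used for it did not pass: Gdf15 changed by -0.14 (SE 0.0864, adjusted p = 0.549), Fgf21 by -0.065 (SE 0.104, adjusted p = 0.867), Trib3 by -0.04 (SE 0.116, adjusted p = 0.939) and Asns by -0.19 (SE 0.0552, adjusted p = 0.116).

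Of 25 genes of NRF2 and redox defence, Gclm alone was called, against 0.865% of all genes. Gclm, a subunit of the enzyme that starts glutathione synthesis, read 10.06 to 10.38 on phenformin arrays and 10.43 to 10.94 on control arrays, with no overlap. It changed by -0.42 (SE 0.0705, adjusted p = 0.0104), while Nqo1 and Hmox1 did not pass (0.083, adjusted p = 0.572, and -0.37, adjusted p = 0.191). Of 19 cytosolic heat shock genes, 1 was lower, Hspa1l, against 0.616% of all genes, 16 lay below 0 and the median was -0.18. Hspa1l changed by -0.50 (SE 0.0935, adjusted p = 0.0188), with adjusted p = 0.101 without control day 3 replicates 2 and 3. Ftl1, the light chain of the iron store ferritin, was the 1 called gene of 21 in iron handling (-0.41, SE 0.079, adjusted p = 0.022), against 0.865% of all genes. It changed by -0.22 at day 3 and -0.59 at day 14. Near-identical copies of this gene exist in the rat genome, and probes may not tell them apart. Ftl1l5, another ferritin light chain entry outside that list and named after its values were seen, also fell (-0.43, SE 0.0957, adjusted p = 0.0435).

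Markers of other cells in the tissue differed in some lists. Of 10 red blood cell markers, 2 were lower (0.616% of all genes were) and 9 lay below 0, with a median of -0.335. Slc4a1, the anion exchanger of the red cell membrane, read 8.06, 8.51 and 8.86 on the lowest, median and highest phenformin arrays and 8.72, 9.46 and 9.98 on control arrays. It fell (change -0.98, SE 0.155, adjusted p = 0.00829), as did Epb42, a protein of the red cell skeleton (-0.45, SE 0.0986, adjusted p = 0.0404; lost in 11 of 16 fits without 1 array). The mean deviation of this list ran from -0.686 to 0.0216 on phenformin arrays and from -0.0796 to 0.663 on control arrays. Platelet markers lay below 0 in 9 of 9 genes with a median of -0.349, -0.039 at day 3 and -0.498 at day 14, with limma calling 0 and 6 at an unadjusted p under 0.05. The part of blood content in the falls of Slc4a1 and Epb42 was not tested.

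Fibroblast markers lay below 0 in 13 of 14 genes with a median of -0.231 and mast cell markers in 8 of 8 with a median of -0.20, with 0 called by limma in either list and 5 and 2 at an unadjusted p under 0.05. Macrophage markers had a median of -0.098 over 14 genes, with 0 called and 6 at an unadjusted p under 0.05. Endothelial, smooth muscle, lymphocyte, neutrophil, adipocyte and skeletal muscle lists each had 0 called by limma and at most 3 members at an unadjusted p under 0.05. Of all genes, 0.865% were called and 12.8% had such a p. Wt1, a transcription factor of the epicardium, was the 1 called gene of 7 mesothelial markers, against 0.865% of all genes. It changed by -0.31 (SE 0.0669, adjusted p = 0.0388), lost in 12 of 16 fits without 1 array.

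**Figure D5:**
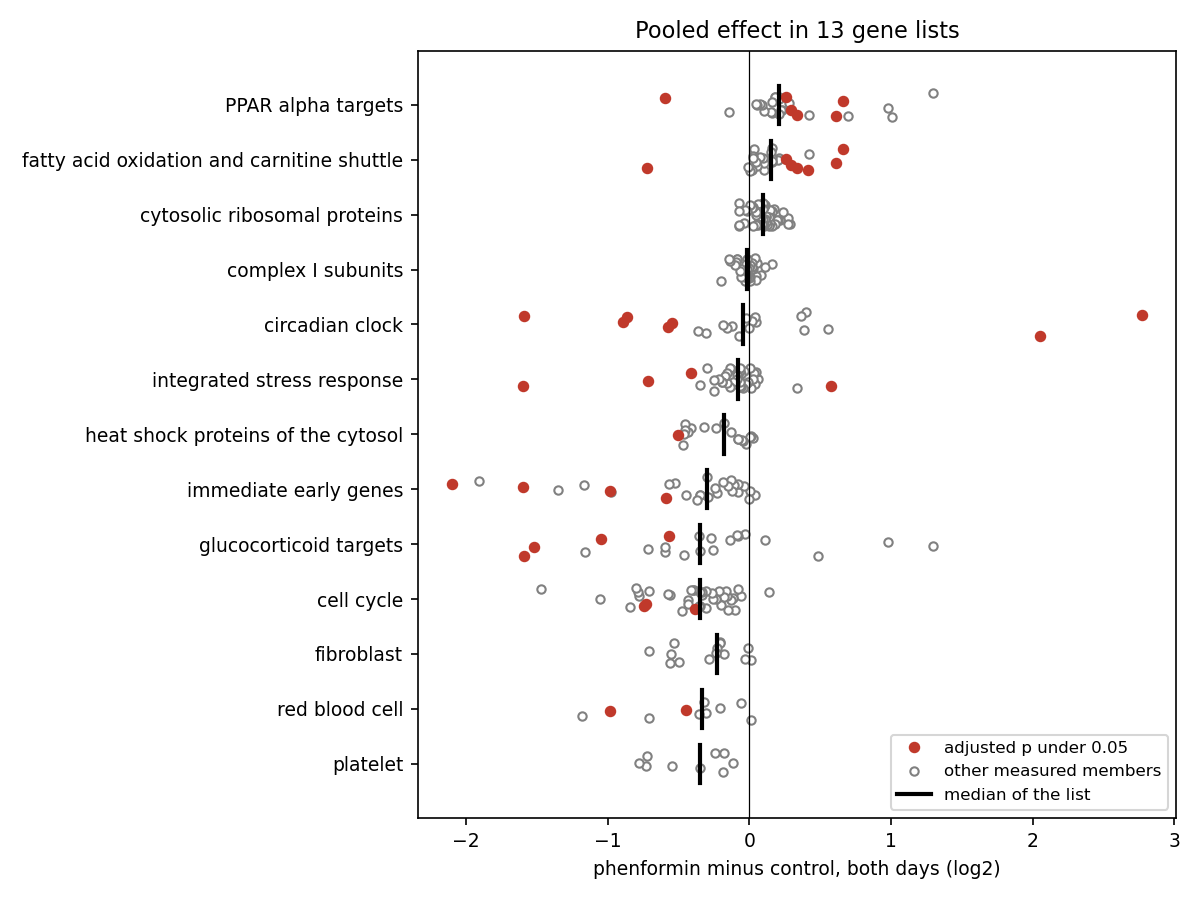
Pooled change of each measured member (points) in 13 gene lists; the x axis is phenformin minus control in log2 units, red points passed the adjusted threshold, open points did not, and black bars are list medians. Members of the PPAR alpha and fatty acid oxidation lists lie mostly right of 0, complex I subunits lie close around 0, and immediate early, cell cycle, fibroblast, red blood cell and platelet members lie mostly left of 0.

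Cell cycle genes lay mostly below 0. Of 40 measured, 3 were lower over both days (0.616% of all genes were), Tpx2, Kif23 and Tk1, and 39 lay below 0 with a median of -0.345, and the median was -0.565 at day 3 and -0.085 at day 14. Without control day 3 replicates 2 and 3 those 3 did not pass and the median was -0.302. Mki67, the standard marker of dividing cells, read 6.49, 6.54, 6.75 and 6.61 on the day 3 phenformin arrays and 9.41, 9.57, 9.05 and 9.34 on the day 3 control arrays. At day 14 it read 8.66, 8.03, 8.14 and 6.89 with phenformin and 9.10, 6.73, 8.24 and 8.41 in controls, so the groups lay far apart at day 3 and overlapped at day 14. Over both days Mki67 changed by -1.47 without passing (SE 0.408, adjusted p = 0.101). The difference between its effects had an unadjusted p of 0.00025 and, like every other gene's, did not pass after adjustment.

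Tpx2 and Kif23, a spindle protein and a motor of cell division, changed by -0.75 and -0.73 over both days (adjusted p = 0.0433 and 0.0404), with -1.26 and -1.17 at day 3 and -0.24 and -0.29 at day 14. Tk1, thymidine kinase, changed by -0.38 (SE 0.0819, adjusted p = 0.0352). These calls were lost in 13, 12 and 12 of the 16 fits without 1 array. The 5 genes of smallest p for the difference between days, given as values since none passed, were Diaph3, Bub1, Ntaq1, Sirt2 and Clic5. Diaph3 and Bub1, both of dividing cells, changed by -0.99 and -0.86 at day 3 and by -0.0039 and 0.17 at day 14. Ntaq1 and Sirt2, a glutamine amidase and a deacetylase, went the other way with 0.14 and 0.11 at day 3 and -0.47 and -0.39 at day 14. Clic5 changed by 0.48 at day 3 and 0.039 at day 14.

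Other lists gave no calls by limma, where 0.865% of all genes were called and 12.8% had an unadjusted p under 0.05. Of 15 genes of fatty acid synthesis, 0 were called and 8 had an unadjusted p under 0.05, with a median of -0.137. Cytosolic ribosomal protein genes lay above 0 in 48 of 55 (44.0% of all genes did) with a median of 0.097, 0 called and 10 at an unadjusted p under 0.05. The mean deviation of this list ran from -0.0124 to 0.116 on phenformin arrays, all within the control range of -0.256 to 0.225. Interferon-stimulated genes lay above 0 in 22 of 27 with a median of 0.128, 0 called and 0 at an unadjusted p under 0.05. Their mean deviation ran from -0.510 to 0.828 on phenformin arrays and from -0.354 to 0.194 on control arrays. Of 59 mitochondrial ribosomal protein genes 0 were called and 10 had an unadjusted p under 0.05, and of 25 autophagy genes 0 and 5. Ppargc1a, a coactivator of mitochondrial genes, changed by -0.15 (SE 0.103, adjusted p = 0.596).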

How the data were processed

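RNA from 16 hearts (300 ng each, per the labels' protocols) was hybridised to Affymetrix whole-transcript arrays. The authors deposited intensities on a linear scale. These were made with RMA, per the submitters' processing notes, with no version given. Since those notes do not say how the summary was brought to a linear scale, folds refer to the deposited scale. Log2 was taken of each deposited intensity, with no further normalisation. Of 68842 probe sets, 23446 carry 1 gene symbol, 505 several and 44891 none. The brightest probe set with 1 symbol stood for a gene, which gave 22093 genes, and no filter on dim genes was used. The number of arrays limits the precision.

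The linear models of limma 3.58.1 (R 4.3.3, and version 1.17.8 of data.table) had day and treatment as terms, with moderation along a mean-variance trend. Effects of each day and their difference came from a fit with 1 mean per group. All tests are two-sided. On simulated data for the pooled comparison of 22093 genes, with 200 changed, 77% were recovered at 1.5-fold and 97% at 2-fold. The labels do not say that a replicate number is shared between groups, so the numbers were not used as pairs. Deviations from the group mean correlated at -0.185 to 0.216 in 24 pairs of arrays with the same number (median 0.036, 3 over 0.1). The median of the 72 other pairs was -0.013. The rule for named genes took the 15 largest rises and 15 largest falls among called genes with groups apart at both days, the 3 called members of largest change in each of 56 gene lists, a fixed set of markers, and the 5 genes of smallest p for the difference between days, 72 genes in all. Other list members are named as known genes of their pathway. The members, lists and rule were chosen with earlier results of these data known, so counts in lists are descriptions. Promoters came from RefSeq (GRCr8), which matched 54 of 74 named or clock genes, and were searched on both strands for CACGTG, TGACGTCA, TTANGNAA and AGGTCA, which do not contain each other. Alternatives changed the filter, normalisation, moderation, array weights, probe set choice, model and threshold, and left out each array in turn. Leaving out both control day 3 replicates 2 and 3 was chosen after seeing the data.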

Additional observations from a re-analysis of the deposited data

Results flagged for a closer look

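Among the named genes, each group of 8 arrays was screened for a single array far from the nearest other one relative to the range of its group. Chance flags about 1 in 20 groups, and 9 of the 144 groups screened were flagged. On the phenformin arrays, Nr1d1 was lowest on day 3 replicate 2 at 9.030, where the next array read 9.983. The same array was the highest of its group for Atf3, at 7.244 against a next value of 6.433. Angptl4 was highest on phenformin day 14 replicate 2, at 8.382 against 6.868.

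On the control arrays, day 3 replicate 3 was highest for Atf3 (9.353, next 8.157) and for Angptl4 (6.398, next 5.844) and lowest for Alg11 (7.352, next 7.507). Control day 14 replicate 2 was lowest for Acadsb (12.640, next 13.160) and for Mki67 (6.729, next 8.243). Gpam was highest on control day 14 replicate 3 (13.040, next 12.440). Without these arrays taken singly, Nr1d1, Atf3 and Alg11 kept their calls, while Acadsb and Gpam depended on several other arrays as given above.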

How the results depend on the processing

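The pooled count of 191 became 29 at an adjusted p under 0.01, 58 with a 1.5-fold minimum, 348 with genes under the 50th percentile of level dropped, 62 with array medians aligned, 55 when all probe sets were tested and 53 without control day 3 replicates 2 and 3. Leaving out 1 array gave 91 to 285 pooled, 22 to 149 at day 3, 3 to 29 at day 14 and 0 to 1 for the difference between days. Day 3 (125) became 13 and 83 at these 2 thresholds, 74 with medians aligned, 16 when all probe sets were tested and 3 without both arrays. It was 55, 75, 62 and 33 without phenformin day 3 replicates 1 to 4 and 49, 22 and 66 without control day 3 replicates 1 to 3. Day 14 (16) became 2 and 9 at these thresholds, 33 with the 25th and 60 with the 50th percentile filter, 3 with medians aligned, 3 without the trend, 8 with array weights, 8 with probe sets averaged, 2 over all probe sets and 1 from its own 8 arrays. The cause was not tested. With the replicate number as a block the counts were 180 pooled, 153 of them among the 191, and 5 at day 14; Cpt1a, Epb42, Kif23, Mlycd, Pot1b, Slc7a1 and Tpx2 lost their calls (adjusted p of 0.0518 to 0.0683). Normal scores of ranks called 202 genes, 91 higher and 111 lower (45.0% higher, against 28.8%). Of the 191 genes 79 passed without any single array and 34 under every alternative, and none reversed. Of 52 named called genes, 35 and 24 did so. Nppb, not called, changed sign to -0.036 with quantiles normalised again, to -0.022 without both arrays and in 8 fits without 1 array (range -0.128 to 0.166). Trib3, not called, did so in 1 (range -0.101 to 0.031). In 1735 recomputed list medians 11 moved beyond the spread between arrays. Counts of called list members were less stable: of 1735 recomputed, 231 moved more than 1.5-fold, or to or from 0.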

Other observations

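Some genes that passed the pooled test belong to no list described above and were chosen after their values were seen. Cirbp, an RNA-binding protein that rises in the cold, read 7.62, 7.93 and 8.14 on the lowest, median and highest phenformin arrays and 7.33, 7.51 and 7.64 on control arrays. It overlapped by a single pair of arrays and rose by 0.40 (SE 0.0747, adjusted p = 0.0195). Usp2, a deubiquitinase whose messenger RNA cycles with the clock in mouse, read 8.95 to 9.55 with phenformin and 9.33 to 10.12 in controls, and changed by -0.54 (SE 0.105, adjusted p = 0.023). Wee1, a cell cycle kinase under clock control in mouse liver, changed by -0.46 (SE 0.0901, adjusted p = 0.0225). Acad10, an acyl-CoA dehydrogenase, rose by 0.55 (SE 0.102, adjusted p = 0.0191).

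Tob1 and Tob2, a pair of related antiproliferative genes, changed by -0.55 and -0.68 (adjusted p = 0.0352 and 0.0254). Vamp3, a vesicle protein of endosomal recycling, read 8.62 to 8.88 with phenformin and 8.91 to 9.26 in controls, with no overlap, and changed by only -0.37 (SE 0.0493) with adjusted p = 0.00229. Ypel2 changed by -0.37 at day 3 and -0.92 at day 14 (pooled -0.64, SE 0.103, adjusted p = 0.0083). Lmod2, leiomodin 2, which lengthens thin filaments of heart muscle, changed by -0.71 (SE 0.133, adjusted p = 0.0195), in the opposite direction to Tcap and Myom2. Without control day 3 replicates 2 and 3, Lmod2, Acad10, Tob1, Tob2, Usp2 and Wee1 missed the threshold (adjusted p of 0.0567 to 0.128), and Tob1 did so in 11 of the 16 fits without 1 array.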
